A study of Bos taurus with 40 samples.

Results

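Each bovine oocyte grows in a follicle lined by granulosa cells and is wrapped in cumulus cells, which arise from the same follicular layer. In the blastocyst group the oocyte developed to a blastocyst, and in the cleavage group development stopped at cleavage. The effect of this fate, blastocyst over cleavage, was compared between cumulus cells and granulosa cells with 4 libraries in each of the 4 groups: cumulus blastocyst, cumulus cleavage, granulosa blastocyst and granulosa cleavage. All groups are labelled diploid, and the labels used here name no agent, breed or age. Granulosa cells were taken from single follicles, whereas cumulus cells were taken after the oocyte complexes had been matured in vitro. Cell type, time of collection and count table therefore change together and cannot be told apart.

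The 2 tables were joined by row name, and a row became a member when its mean reached 10 counts per 1000000 counts of the library (CPM) in cumulus cells and in granulosa cells. This kept 8998 of 59051 rows. A further 1499 rows reached 10 CPM in cumulus cells alone and 3531 in granulosa cells alone. Of the members 8326 carry Ensembl identifiers without a gene name, and 349 carry a symbol, so the named genes below are a small share. No row of the 22227 with NONCODE identifiers became a member. LAMA5, at 99.3 CPM in cumulus cells and 10.05 CPM in granulosa cells, lay just inside the limit, and ZNF792, at 16.54 and 9.957 CPM in the same order of cell types, just outside it. Of 13 markers of granulosa and cumulus cells none had a row under its symbol, nor had any of 8 markers of matured cumulus cells, 5 of theca, 4 of endothelium, 4 of blood, 5 of leukocytes and 3 of smooth muscle, so the labelled cell types could not be checked against them.

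Cumulus cells stay coupled to the oocyte through gap junctions and pass it metabolites and signals, and they expand when the oocyte matures. Granulosa cells lining the follicle wall make steroids in response to gonadotropins. Both have been studied as accessible witnesses of oocyte competence, which is the ability to develop after fertilisation. An interaction, as used here, is a fate effect of different size or direction in the 2 cell types.

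Libraries held 7964591 to 9592127 counts in cumulus cells and 9875705 to 17668550 in granulosa cells. The member rows took 91.3 ± 0.0725% of counts in cumulus libraries of the blastocyst group and 91.3 ± 0.274% in those of the cleavage group (SD, n = 4, exact two-sided permutation p = 0.9429). In granulosa cells they took 51.33% in library B20, 87.06% in B21, 87.95% in D24 and 72.06% in D27 of the blastocyst group, against 92.9 to 94.3% in the cleavage group. These granulosa groups did not overlap (exact two-sided permutation p = 0.0286, n = 4, the smallest that 4 against 4 libraries can give). Rows with at least 5 counts numbered 16910 ± 225 in the cumulus blastocyst group and 17046 ± 31.4 in the cumulus cleavage group (exact permutation p = 0.2571, n = 4). In granulosa cells they numbered 27546 ± 1170 in the blastocyst group and 19465 ± 1762 in the cleavage group (exact permutation p = 0.0286, n = 4). H1FOO, the linker histone of oocytes and the one oocyte marker of 12 with a row, averaged 0.0273 CPM in the cumulus blastocyst group and 0 in the cumulus cleavage group. It averaged 17.2 CPM (5.84 to 34.2) in the granulosa blastocyst group and 1.56 CPM (0.234 to 5.10) in the granulosa cleavage group, per library total. These library differences move with fate in granulosa cells, and their part in the results below was not tested. The labels tie no library to an animal, and the p-values therefore reflect library-to-library spread that may be technical. In such bulk samples fewer cells of a type and less RNA per cell cannot be told apart.

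**Figure D1:**
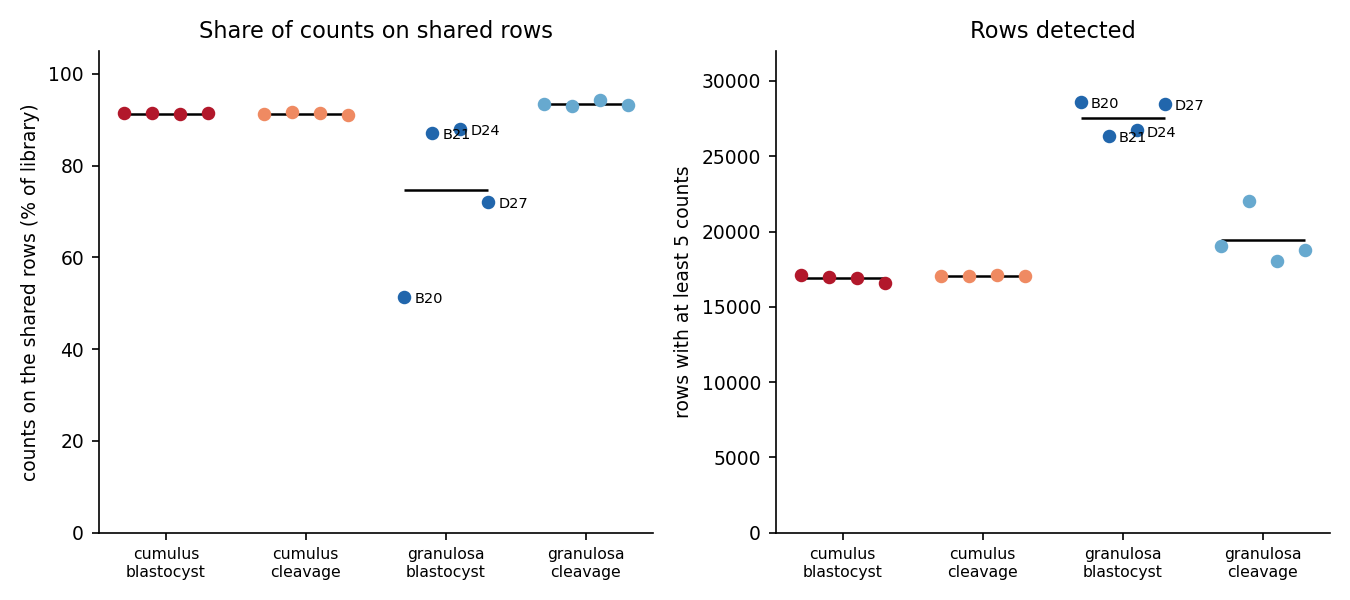
Share of each library's counts that fell on the 8998 shared rows (left, %) and number of rows with at least 5 counts (right), 1 point per library with the mean of 4 as a line. The cumulus libraries of both fates lie together near 91.3%, whereas granulosa library B20 of the blastocyst group lies at 51.33% and D27 at 72.06%.

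The fate effect was small in cumulus cells and broad in granulosa cells. Over the members the log2 fold change, blastocyst over cleavage, had a median of -0.01 and an SD of 0.18 in cumulus cells and a median of -0.56 and an SD of 0.89 in granulosa cells. The middle 90% of members ran from -0.33 to 0.21 in cumulus cells and from -1.2 to 1.42 in granulosa cells, and 13 and 1973 members exceeded 1 in size in these cell types. Replicates spread unequally too: the median SD of a member's log2 CPM was 0.112 in the cumulus blastocyst group, 0.121 in the cumulus cleavage group, 0.755 in the granulosa blastocyst group and 0.366 in the granulosa cleavage group.

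The signs of the 2 fitted effects differed in most members. By sign, 816 were higher in the blastocyst group of both cell types and 3223 were lower in both, while 3543 were higher in cumulus and lower in granulosa cells and 1416 the reverse. The same sign thus held for 44.9% of members, and for 40.9% once each effect was taken relative to the median of its cell type. Positive effects numbered 4359 of 8998 in cumulus cells and 2232 in granulosa cells. The agreement expected of unrelated signs was not worked out. The median size of the cumulus effect was 0.11, near the replicate SDs of 0.112 and 0.121 in cumulus cells. Single cumulus signs are therefore not settled, and these shares are a description and no evidence of opposed directions. Across the 8998 members, which share libraries and scaling and are not independent replicates, the 2 effects had a Pearson correlation of -0.168 and a Spearman correlation of -0.201. These values describe the whole set of libraries and moved with single granulosa libraries, as given at the end.

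**Figure D2:**
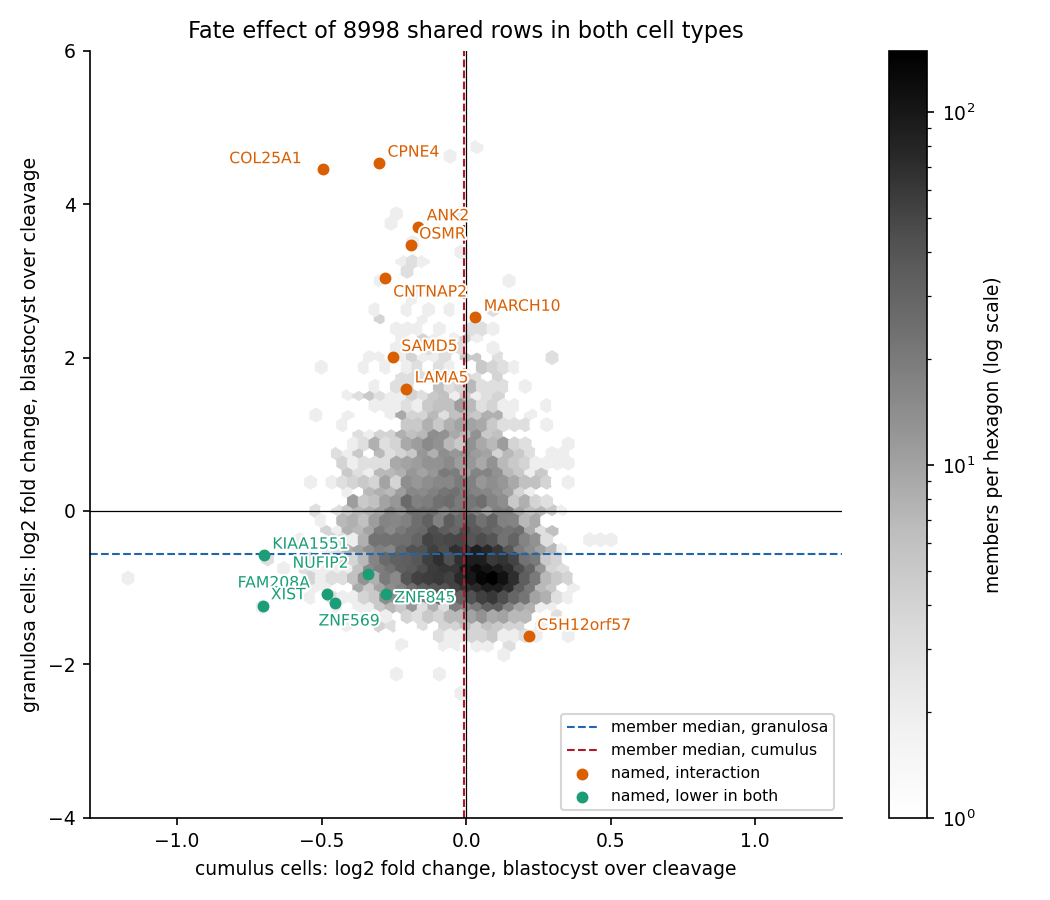
Log2 fold change of blastocyst over cleavage in cumulus cells (horizontal) and in granulosa cells (vertical) for the shared rows, as hexagons shaded by the number of rows on a log scale, with 9 rows outside the axes. Dashed lines mark the medians of -0.01 in cumulus and -0.56 in granulosa cells, and the 9 labelled genes with an interaction lie far from the horizontal axis but within 0.5 of the vertical one.

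A test of the interaction, the cumulus fate effect minus the granulosa fate effect, called 44 members higher and 312 lower (edgeR quasi-likelihood, Benjamini-Hochberg adjusted p under 0.05). These are 0.489% and 3.47% of the members, against 0.319% higher and 9.91% lower (10.2% in both directions) over all 21929 rows fitted. In the 356 members called, the median size of the effect was 0.17 in cumulus cells and 2.28 in granulosa cells, and in 0 of them was the cumulus effect the larger. Of the 312 called lower, 236 had a negative cumulus and a positive granulosa effect and 76 were positive in both. Of the 44 called higher, 38 had a positive cumulus and a negative granulosa effect and 6 were negative in both. The filter on the mean level bears on these counts: among the 772 members that lay below 10 CPM in at least 1 of the 4 groups, 191 (24.7%) were called lower, and among the 8226 that reached it in every group 121 (1.47%) were. Leaving out any 1 of the cumulus libraries gave 4 to 12 higher and 85 to 142 lower calls. Leaving out granulosa library B20 gave 460 higher and 206 lower, B21 1166 and 500, D24 1516 and 621, D27 47 and 152, B14 88 and 242, B23 415 and 308, and D10 39 and 156.

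In granulosa cells, named genes that passed for a lower interaction were higher in the blastocyst group. Their cumulus effects ran from -0.52 to 0.03. ANK2, an ankyrin that anchors membrane proteins to the cytoskeleton, stood at 36.1, 32.6, 32.1 and 38.9 CPM in the cumulus blastocyst group and at 35.8, 38, 28.7 and 54.3 CPM in the cumulus cleavage group. In granulosa cells it stood at 323 (B20), 59.8 (B21), 41.3 (D24) and 165 CPM (D27) in the blastocyst group and at 8.68, 18.7, 7.88 and 9.78 CPM in the cleavage group. The cumulus groups overlapped, while all granulosa libraries of the blastocyst group lay above all of the cleavage group, B20 and D27 furthest. The log2 effect was -0.17 in cumulus cells and 3.71 in granulosa cells, an interaction of -3.87 (SE 0.71, edgeR quasi-likelihood adjusted p = 0.00828).

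CPNE4, a copine that binds membrane phospholipids in the presence of calcium, had 13.8, 21.1, 10.2 and 10.5 CPM in the cumulus blastocyst group and 16.2, 13.1, 24.5 and 14.6 CPM in the cumulus cleavage group. It had 543 (B20), 93.7, 79 and 301 CPM (D27) in the granulosa blastocyst group and 10.5, 22.1, 2.40 and 8.74 CPM in the granulosa cleavage group. Its interaction was -4.84 (SE 0.89, edgeR adjusted p = 0.00828), again with overlapping cumulus groups and separate granulosa groups. CNTNAP2, a neurexin-related cell adhesion protein, averaged 49.9 ± 11.1 CPM in the cumulus blastocyst group and 60.7 ± 9.90 CPM in the cumulus cleavage group (SD, n = 4). In the granulosa blastocyst group its 4 libraries ran from 236 (D24) to 1499 CPM (B20), and in the granulosa cleavage group from 75.1 to 115 CPM, giving an interaction of -3.32 (SE 0.63, edgeR adjusted p = 0.00852).

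OSMR, the receptor subunit for oncostatin M, stood at 17.8 to 21.6 CPM in the cumulus blastocyst group and at 16.1 to 26.5 CPM in the cumulus cleavage group. Its granulosa values were split within the blastocyst group, 52.9 CPM in B20 and 45.5 in D27 but 5.61 in B21 and 6.65 in D24, against 1.66 to 3.29 CPM in the cleavage group. All 4 blastocyst libraries still lay above the cleavage group, and the interaction was -3.66 (SE 0.81, edgeR adjusted p = 0.0134). It was -1.41 and not called without both B20 and D27, and -2.85 and not called with voom. LAMA5, the laminin alpha 5 chain of basement membranes, averaged 95.6 ± 6.14 CPM in the cumulus blastocyst group and 110 ± 11.03 CPM in the cumulus cleavage group. In granulosa cells it averaged 13.8 ± 5.35 CPM in the blastocyst group and 4.54 ± 1.43 CPM in the cleavage group, and no granulosa library overlapped the other fate (interaction -1.80, SE 0.39, edgeR adjusted p = 0.0121). Without cumulus library 9 of the blastocyst group the LAMA5 interaction was -1.32 and not called. SAMD5, a protein with a sterile alpha motif, averaged 46.2 ± 3.90 and 55.1 ± 8.02 CPM in the cumulus blastocyst and cleavage groups. In granulosa cells its means were 26.6 ± 15.04 CPM in the blastocyst group and 6.61 ± 0.975 CPM in the cleavage group (interaction -2.26, SE 0.44, edgeR adjusted p = 0.00901). Without both B20 and D27 the interaction was -2.26 for ANK2, -3.21 for CPNE4, -1.90 for CNTNAP2, -1.17 for LAMA5 and -1.38 for SAMD5, and these 5 were called. OSMR (2.48), LAMA5 (4.54) and SAMD5 (6.61) had granulosa cleavage means below 10 CPM. They became members through the granulosa blastocyst group, where they were high. Their p-values and separate granulosa groups are therefore no evidence of how often members differ.

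**Figure D3:**
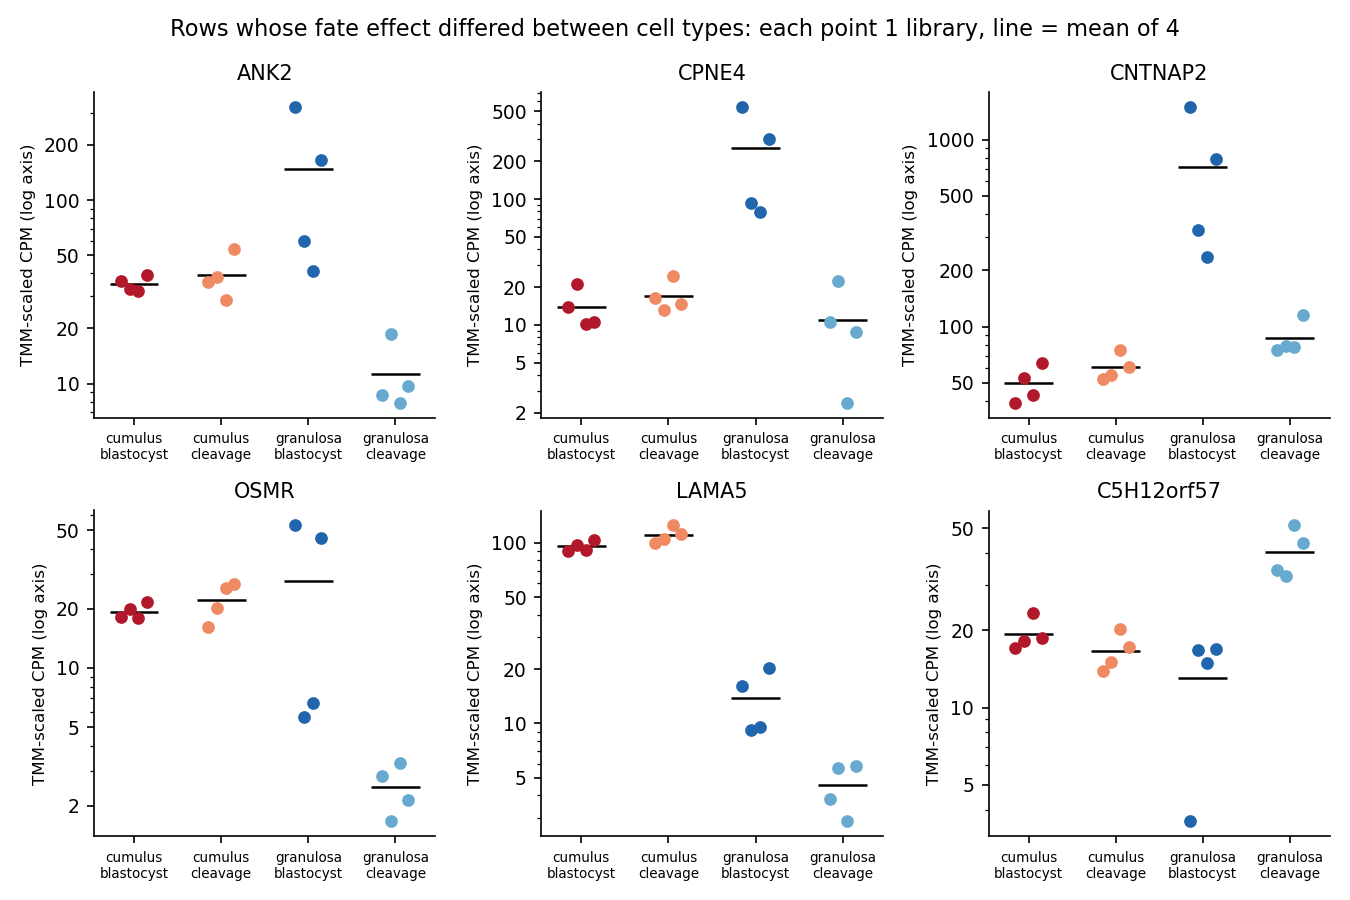
Level of 6 named genes in every library as TMM-scaled CPM on a log axis, with the mean of 4 libraries as a line. For ANK2, CPNE4, CNTNAP2, OSMR and LAMA5 the granulosa groups separate with blastocyst above cleavage while the cumulus groups overlap, and for C5H12orf57 the granulosa blastocyst libraries, at 3.61 to 17 CPM, lie below those of the cleavage group, at 32.5 to 51.4 CPM.

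The same pattern, a granulosa effect above 1 beside a cumulus effect between -0.52 and 0.03, passed the test in several further genes. They were NOS1AP, an adaptor of neuronal nitric oxide synthase (interaction -3.38), COL25A1, a transmembrane collagen (-4.95), TNFRSF8, the CD30 receptor (-4.54), and ZNF469, a zinc finger protein (-4.10). MARCH10 (-2.50) and MARCH3 (-2.82), both of the membrane-associated RING ubiquitin ligases, the septin SEPT6 (-1.83) and ZNF699 (-1.76) passed as well (edgeR adjusted p of 0.042 or lower in each of these 8). In COL25A1 cleavage library B23 stood at 19.9 CPM against 1.72 CPM or less in the other cleavage libraries. In granulosa cells each of these 8 genes was highest in B20 or D27 of the blastocyst group. Without cumulus library 9 the calls of NOS1AP (-2.79), COL25A1 (-4.47) and TNFRSF8 (-3.98) ended, and that of TNFRSF8 also without cumulus library 11 (-4.42) or 12 (-4.41). When single libraries were left out, ZNF469 was called in 6 of 16 fits, ZNF699 in 4, MARCH3 in 3 and SEPT6 in 2, and of the 8 genes MARCH10 alone was called in all 16. Without both B20 and D27 the calls of the other 7 ended, at -1.90 for NOS1AP, -3.35 for COL25A1, -3.04 for TNFRSF8, -3.48 for ZNF469, -1.15 for MARCH3, -0.83 for SEPT6 and -1.07 for ZNF699, and MARCH10 stood at -1.49 and was called. In 7 of the 8, all but NOS1AP at 10.3 CPM, the granulosa cleavage mean lay at 1.29 to 8.26 CPM, as it did below 10 CPM in OSMR, LAMA5 and SAMD5. These genes reached the level asked of members through the granulosa blastocyst group, where they were high, so that their passing is no evidence of how often members differ.

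Few named genes had a higher interaction. C5H12orf57, a small protein needed for brain development in humans, stood at 17.1, 18.1, 23.4 and 18.7 CPM in the cumulus blastocyst group and at 13.9, 15.1, 20.3 and 17.2 CPM in the cumulus cleavage group. Its granulosa levels were 3.61 (B20), 16.7, 14.9 and 17 CPM in the blastocyst group and 34.5, 32.5, 51.4 and 43.8 CPM in the cleavage group. Its effect was 0.22 in cumulus cells, where the groups overlapped, and -1.63 in granulosa cells, where they did not (interaction 1.85, SE 0.51, edgeR adjusted p = 0.032). The call ended without cumulus library 9 (2.18), 11 (1.87) or 5 (1.91), with letter B alone (1.99) and with TMM scaling on the member rows (1.09). HEXDC, a hexosaminidase, had effects of 0.09 in cumulus and -1.50 in granulosa cells and did not pass (edgeR adjusted p = 0.0561). KIAA0141, C11H9orf16, SNURF, ARMCX6 and WRB, a receptor for insertion of tail-anchored membrane proteins, were among the next by p and did not pass either, with interactions of 0.85 to 1.95. Among members without a gene name, ENSBTAG00000015312 had an interaction of 1.26 and ENSBTAG00000003843 of 0.92, and ENSBTAG00000005021 of -4.01 and ENSBTAG00000040088 of -3.50. With TMM scaling on the member rows the first 2 stood at 0.34 and -0.17 and were not called. ENSBTAG00000003843 was also not called under DESeq2 size factors (0.71), library totals (0.63) or without cumulus library 11 (0.99), nor ENSBTAG00000015312 without cumulus library 9 (1.57).

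Opposite directions were also looked for in fits of each cell type on its own. In cumulus cells 0 of 15410 rows passed (0.0% of rows). Of the 8997 members fitted there, 1722 had an unadjusted p under 0.05, 665 of them higher and 1057 lower (edgeR quasi-likelihood). In granulosa cells 226 members were called higher and 56 lower (2.51% and 0.622% of members), against 21.3% and 0.349% of the 22934 rows fitted. Leaving out D27, B14, D10 or D29 gave 82, 131, 102 and 127 higher calls, and single libraries moved the lower calls between 10 (without D27) and 359 (without B21). The DESeq2 Wald test called 16 members higher and 116 lower in cumulus cells and 538 higher and 246 lower in granulosa cells. For the unadjusted p and for the Wald test the shares of all rows were not counted. These numbers therefore do not set members apart from other rows. Of the 226 higher in granulosa cells, 152 (67.3%) had a negative cumulus effect, against 51.6% of all members, and the median cumulus effect of the 226 was -0.09. Their granulosa cleavage means had a median of 7.7 CPM, and 78 of the 226 reached 10 CPM in each of the 4 groups. The rest lay below 10 CPM in at least 1 group. Members are not independent replicates, so these shares are a description and no evidence of opposite directions. Of the 56 lower in granulosa cells, 39 (69.6%) had a negative cumulus effect too. RPL31, a protein of the large ribosomal subunit, showed the cumulus-higher pattern, with 706 to 778 CPM in the cumulus blastocyst group and 635 to 699 CPM in the cumulus cleavage group, which did not overlap. In granulosa cells it ran from 104 to 488 CPM in the blastocyst group and from 350 to 960 CPM in the cleavage group, which overlapped, and the interaction of 1.19 did not pass (edgeR adjusted p = 0.167). The selenoprotein SELENOH (1.27), the mitochondrial ribosomal protein MRPL14 (0.99), the ubiquitin ligase RNF149 (0.96), SMIM37 (1.32) and CCDC189 (1.21) had the same pattern and did not pass. The reverse, cumulus lower and granulosa higher, held for SAMD5, LAMA5, COL25A1, TNFRSF8, ZNF699 and MARCH3, described above. Their cumulus effects ran from -0.21 (LAMA5) to -0.52 (TNFRSF8), with unadjusted p of 0.0228 to 0.0473 in the cumulus fit (edgeR quasi-likelihood). They were picked for small p.

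Agreement was sought with the average of the 2 effects, which called 222 members higher and 93 lower (edgeR quasi-likelihood, adjusted p under 0.05), which are 2.47% and 1.03% of members, against 7.36% and 0.511% of all rows fitted (7.87% in both directions). An average can come from 1 cell type alone, and in 180 of these 315 members the cumulus effect was under 0.2 in size. Of the 315, 110 were not called for the interaction, 25 of them higher in both cell types and 85 lower in both. In 18 members the cumulus effect was at least 0.5 times the granulosa effect with the same sign, and all 18 were lower in the blastocyst group. Leaving out any 1 of the cumulus libraries gave 50 to 90 higher and 6 to 37 lower averages. Among the granulosa libraries, leaving out B20 gave 160 higher and 548 lower, B21 391 and 1089, D24 471 and 1308, D27 98 and 110, B23 258 and 726, and D10 102 and 59.

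FAM208A, a subunit of the HUSH complex that silences retroelements, was lower in the blastocyst group of both cell types. It stood at 74, 86.5, 79.9 and 100.2 CPM in the cumulus blastocyst group and at 118, 120, 128 and 110.2 CPM in the cumulus cleavage group. In granulosa cells it stood at 51 (B20), 163, 113 and 89.7 CPM in the blastocyst group and at 210.1, 195, 246 and 229 CPM in the cleavage group. Neither cell type had overlapping fates, and the average log2 effect was -0.78 (SE 0.19, edgeR adjusted p = 0.0268), made of -0.48 in cumulus and -1.08 in granulosa cells. The call ended without cumulus library 9 (-0.87), 5 (-0.83) or 7 (-0.82), with averages more negative than with all libraries, and with letter B alone (-0.72). With TMM scaling on the member rows it was -0.36 and called.

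NUFIP2, an RNA-binding partner of the fragile X protein, had 61.2, 77.1, 63.3 and 78.6 CPM in the cumulus blastocyst group and 88.6, 84.6, 101 and 80.6 CPM in the cumulus cleavage group. Granulosa libraries had 35.2, 60.2, 57.3 and 40.8 CPM in the blastocyst group and 109, 78.9, 89.1 and 65.7 CPM in the cleavage group. No fate groups overlapped, and the average was -0.58 (SE 0.16, edgeR adjusted p = 0.0354). The zinc finger protein ZNF845 averaged 15.4 ± 2.10 CPM in the cumulus blastocyst group and 18.7 ± 3.05 CPM in the cumulus cleavage group, which overlapped, and 15.9 ± 3.56 and 33.7 ± 4.90 CPM in the granulosa blastocyst and cleavage groups, which did not (average -0.68, SE 0.16, edgeR adjusted p = 0.0242). ZNF569, another zinc finger protein, averaged 12.7 ± 1.32 and 17.4 ± 2.28 CPM in the cumulus blastocyst and cleavage groups, without overlap. In granulosa cells its means were 23.1 ± 6.75 CPM in the blastocyst group and 52.9 ± 30.8 CPM in the cleavage group, and these overlapped (average -0.82, SE 0.24, edgeR adjusted p = 0.0464). With single libraries left out, the average was called in 8 of 16 fits for NUFIP2, in 10 for ZNF845 and in 4 for ZNF569, and it stayed negative in all of them, at -0.69 to -0.55 for NUFIP2, at -0.84 to -0.65 for ZNF845 and at -0.64 or below for ZNF569. With TMM scaling on the member rows these averages were -0.11, -0.18 and -0.33 in the same order and not called. Their interactions were -0.44, -0.17 and -0.21 with that scaling. The granulosa effect was thus positive there for NUFIP2 and negative for ZNF845 and ZNF569, so the granulosa direction of NUFIP2 depended on the scaling. NUFIP2 was also not called under library totals (-0.41), TMM scaling within each table (-0.65) or without B20 and D27 (-0.47), nor ZNF845 with letter B alone (-0.59). ZNF569 was not called under DESeq2 size factors (-0.72), library totals (-0.64), letter B alone (-0.67) or without B20 and D27 (-0.80).

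**Figure D4:**
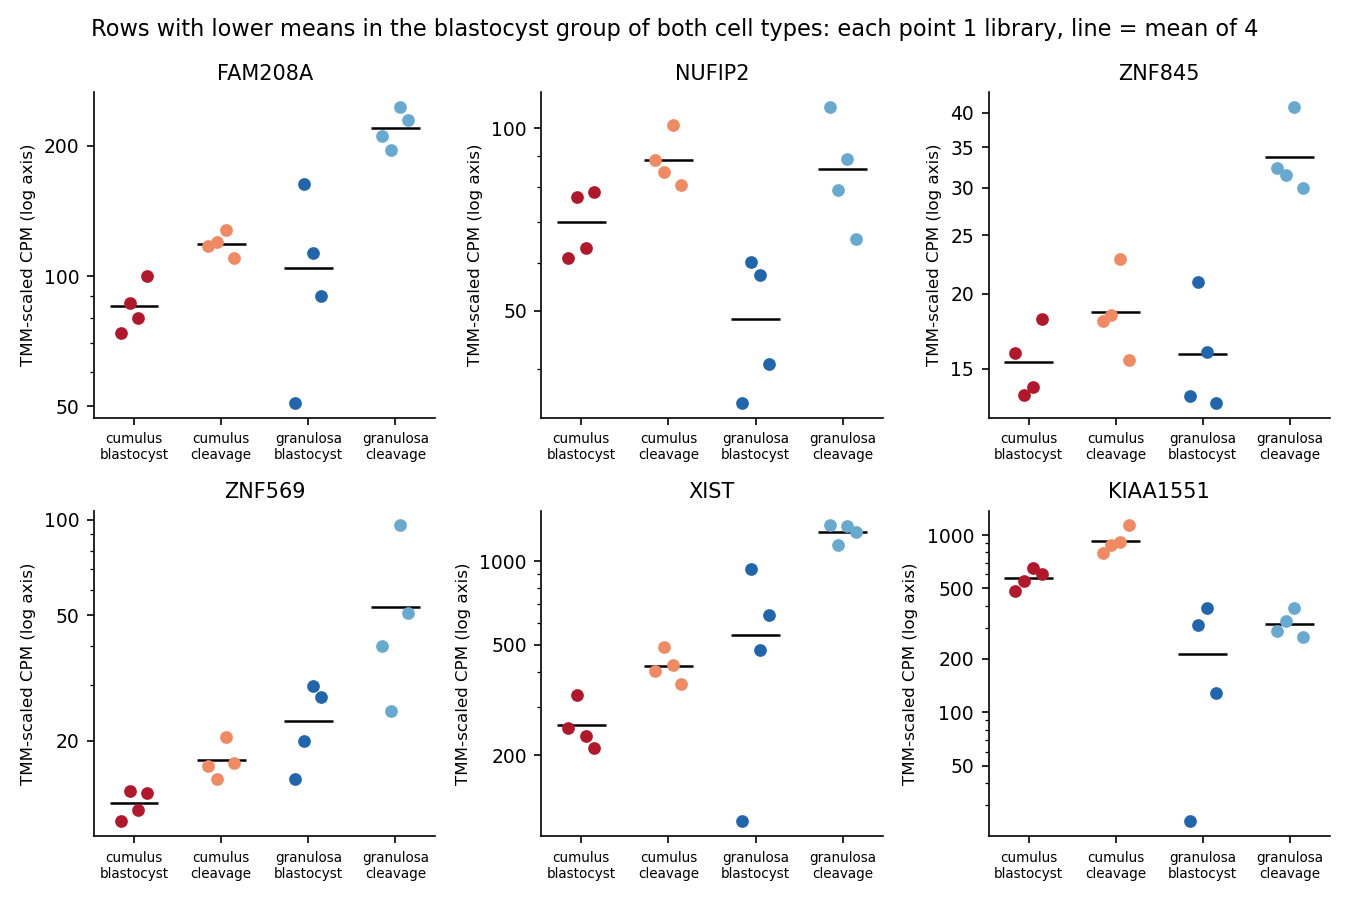
Level of 6 named genes in every library as CPM with the joint TMM scaling on a log axis, with the mean of 4 libraries as a line. With this scaling each had a lower mean in the blastocyst group of both cell types. FAM208A, NUFIP2 and XIST separate by fate in both cell types, and for XIST and KIAA1551 granulosa library B20 lies far below the other libraries, at 116 and 24.3 CPM.

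XIST, the RNA that coats the inactive X chromosome, stood at 250.3, 331, 235 and 213 CPM in the cumulus blastocyst group and at 402, 490.0, 422 and 362 CPM in the cumulus cleavage group. Granulosa levels were 116 (B20), 941, 480.1 and 642 CPM in the blastocyst group and 1347, 1147, 1344 and 1279 CPM in the cleavage group. Fates did not overlap in either cell type, yet the average of -0.97 did not pass (SE 0.30, edgeR adjusted p = 0.0563). KIAA1551, which is involved in retroelement silencing, had 486 to 648 CPM in the cumulus blastocyst group and 791 to 1135 CPM in the cumulus cleavage group. In granulosa cells its blastocyst range of 24.3 to 389 CPM contained the cleavage range of 264 to 387 CPM, and the average of -0.64 did not pass (edgeR adjusted p = 0.255). Both genes had been singled out for cumulus cells in earlier work on these data, so their cumulus values are not new evidence.

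In cumulus cells alone the fates did not overlap for 377 members that were higher in the blastocyst group (4.19%, against 2.64% of all rows fitted) and 628 that were lower (6.98%, against 3.81%). In granulosa cells alone this held for 403 higher (4.48%, against 27.9% of rows) and 1337 lower members (14.9%, against 7.25%). Fates failed to overlap in both cell types at once in 200 members. Of these 102 were lower in both (1.13% of members, 0.483% of all rows fitted) and 8 higher in both (0.0889% of members, 0.205% of rows). A further 71 were higher in cumulus and lower in granulosa cells (0.789% of members, 0.374% of rows), and 19 were lower in cumulus and higher in granulosa cells (0.211% of members, 0.356% of rows). The members with a symbol among the 200 were FAM208A, NUFIP2, XIST, the HUSH-related FAM208B, the ubiquitin ligase MARCH7, the septin SEPT7 and the splicing-related U2SURP. All 7 were lower in both, and U2SURP was picked out after its values had been seen. Overlap was judged with the joint TMM scaling alone. The granulosa median of members was -0.56 there and 0.32 with TMM scaling on the member rows. Relative to the median of -0.56, the granulosa effects of FAM208B and SEPT7 were -0.09 and -0.185. How far the lower counts in granulosa cells depend on the scaling was not tested. U2SURP was not among the genes named by rule. It stood at 55.3 to 68.2 CPM in the cumulus blastocyst group and 68.9 to 77.9 CPM in the cumulus cleavage group, and at 43.3 to 175 CPM in the granulosa blastocyst group and 205 to 272 CPM in the granulosa cleavage group (average -0.68, edgeR adjusted p = 0.0603).

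The named genes higher in both cell types had small cumulus effects, while 2 members without a gene name, picked out after their values had been seen, had larger ones. ENSBTAG00000023843 averaged 58.8 ± 2.49 CPM in the cumulus blastocyst group and 42.8 ± 8.66 CPM in the cumulus cleavage group, and 77.2 ± 37.9 and 23.8 ± 4.92 CPM in the granulosa blastocyst and cleavage groups. Its effects were 0.46 in cumulus and 1.70 in granulosa cells, and those of ENSBTAG00000049163 were 0.38 and 2.32 (edgeR adjusted p of the average 0.0137 in both). SEPT9, a septin, averaged 139 ± 9.81 CPM in the cumulus blastocyst group and 134 ± 21.7 CPM in the cumulus cleavage group, and 53.2 ± 13.1 and 24.6 ± 7.07 CPM in the granulosa blastocyst and cleavage groups. Its average passed (0.58, SE 0.17, edgeR adjusted p = 0.0491), with 0.05 from cumulus and 1.11 from granulosa cells, and MARCH10 passed with 0.03 and 2.53 in the same order. The SEPT9 call held in 3 of the 16 fits that left out a library, at averages of 0.38 to 0.62. It ended too with TMM scaling within each table (0.47), no filter (0.52), voom (0.59), letter B alone (0.40) and without B20 and D27 (0.39). ZNF407, the unconventional myosin MYO18A, KIAA0556 and MKL1, a coactivator of serum response factor, had cumulus effects of 0.01 to 0.16 and granulosa effects of 1.23 to 1.81, and did not pass (edgeR adjusted p of 0.0536 to 0.07).

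Gene families with members were read by count and median. Over the 349 members with a symbol the median effect was -0.03 in cumulus and -0.57 in granulosa cells, with 1 higher and 16 lower interactions passing. Zinc finger proteins, which bind DNA, had 24 members of 63 rows. Their median was -0.13 in cumulus and -0.54 in granulosa cells, 3 were positive in cumulus cells, and 18 shared their sign (11 relative to the medians). ZNF699 and ZNF469 passed for a lower interaction, and the average passed as lower for ZNF845 and ZNF569 and as higher for ZNF469.

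The HUSH-related retroelement silencers, 3 members of 3 rows, were negative in both cell types, and FAM208A alone passed. In granulosa cells 2232 of 8998 members were positive. Relative to the granulosa member median of -0.56 the effects were -0.51 for FAM208A, -0.09 for FAM208B and -0.009 for KIAA1551. The granulosa directions of FAM208B and KIAA1551 lie within the shift of this median with the scaling, given below, and are not settled. FAM208B stood at 76.6 to 89.2 CPM in the cumulus blastocyst group and 92 to 97.1 CPM in the cumulus cleavage group, and at 22.9 to 39.8 CPM in the granulosa blastocyst group and 46.2 to 58.9 CPM in the granulosa cleavage group. This list was drawn up from symbols that had stood out in cumulus cells, so its direction there is not independent evidence.

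The aminoacyl-tRNA synthetases, which charge tRNAs with amino acids, were members in 18 of 18 rows and passed in 0 for the interaction and 0 for the average. Of these 5 were positive in cumulus and 1 in granulosa cells, with medians of -0.12 and -0.56, and 12 shared their sign (6 relative to the medians). KARS averaged 292 ± 15.2 CPM in the cumulus blastocyst group and 275 ± 16.2 CPM in the cumulus cleavage group. In granulosa cells it averaged 121 ± 63.5 CPM in the blastocyst group, where B20 stood at 28.3 CPM, and 256 ± 82.9 CPM in the cleavage group. Histones had 10 members of 63 rows and medians of -0.06 in cumulus and -0.59 in granulosa cells, and none passed either test. H3F3A, a replacement histone, averaged 340.1 ± 16 and 343 ± 15.2 CPM in the cumulus blastocyst and cleavage groups. Its granulosa means were 358 ± 193 CPM in the blastocyst group, 68.1 CPM in B20, and 726 ± 204 CPM in the cleavage group.

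Collagens had 5 members of 13 rows and medians of -0.05 and -0.70, and COL25A1 passed as described. COL4A4, a chain of basement membrane collagen, averaged 199 ± 16.2 and 207 ± 10.95 CPM in the cumulus blastocyst and cleavage groups, which overlapped. Granulosa means were 363 ± 222 CPM in the blastocyst group and 835 ± 180 CPM in the cleavage group, which did not overlap, and its interaction of 1.15 did not pass. The matricellular proteins CTGF and CYR61, 2 members of 6 CCN rows, were level in cumulus cells at -0.01 and 0.02, and neither passed for the interaction or the average. CTGF ran from 0.922 CPM (B20) to 33.3 CPM (D27) in the granulosa blastocyst group and from 11.9 to 194 CPM in the granulosa cleavage group, which overlapped. Its granulosa effect of -2.42 passed in the joint fit (edgeR adjusted p = 0.026), and the value of -2.61 in the granulosa fit alone did not (edgeR adjusted p = 0.1). CYR61 ran from 2.18 CPM (B20) to 133 CPM in the granulosa blastocyst group and from 70.7 to 521 CPM in the granulosa cleavage group, and its granulosa effect of -1.76 did not pass. Septins (7 of 13 rows) had medians of -0.06 and -0.15 and MARCH ligases (7 of 11 rows) of -0.20 and 0.01, with SEPT6, MARCH10 and MARCH3 passing as given above.

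RNA tailing enzymes had 5 members of 6 rows, 5 with the same sign (3 relative to the medians) and 0 passing. PAPD4, a cytoplasmic poly(A) polymerase, averaged 26.5 ± 3.59 and 29.4 ± 1.86 CPM in the cumulus blastocyst and cleavage groups and 63.2 ± 38.2 and 127 ± 38.5 CPM in the granulosa blastocyst and cleavage groups. The 5 solute carriers of 16 rows had medians of -0.03 and -0.33 and none passed. SNRNP70, a protein of the U1 splicing particle and the one member of its list, stood at 145 to 157 CPM in the cumulus blastocyst group and 121 to 140 CPM in the cumulus cleavage group, without overlap. Its granulosa levels were 6.46 to 19.4 CPM in the blastocyst group and 11.9 to 27.3 CPM in the cleavage group, and the interaction of 1.04 did not pass (edgeR adjusted p = 0.139).

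The granulosa medians of these families are read beside the member median of -0.56, which depends on the scaling. Under size factors of DESeq2 it was -0.38, under plain totals per library -0.25, under TMM scaling within each table -0.70 and under TMM scaling on the member rows 0.32, and the median of all rows fitted, 0.21 here, was 0.47, 0.53, 0.01 and 1.36 with these. With the scaling on member rows the interactions of the members therefore had a median of -0.35, against 0.52 with the scaling used here, and family directions that lie within this shift are not settled. By level, the granulosa median was -0.27 for members at 10 to 30 CPM in cumulus cells, -0.59 at 30 to 100, -0.74 at 100 to 300 and -0.90 above 300, while the cumulus medians in these bins were -0.03 to 0.03.

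Agreement moved with 2 granulosa libraries. Each granulosa library of the blastocyst group was set against the cleavage mean, and relative to the medians 37.9% of members shared the cumulus sign for B20, 47.4% for B21, 53.6% for D24 and 36.5% for D27. The correlation with the cumulus effect was -0.235, -0.076, 0.067 and -0.249 in the same order. Without B20 and D27, the 2 libraries with the lowest share of counts on members, it was 0.002 and 51.7% of members shared their sign. In that fit 79 members had a higher and 68 a lower interaction, and of those called with all libraries 17 of 44 and 68 of 312 were called again. By label letter, whose meaning the labels do not give, the correlation was -0.215 with the granulosa libraries of letter B alone and -0.077 with those of letter D alone.

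**Figure D5:**
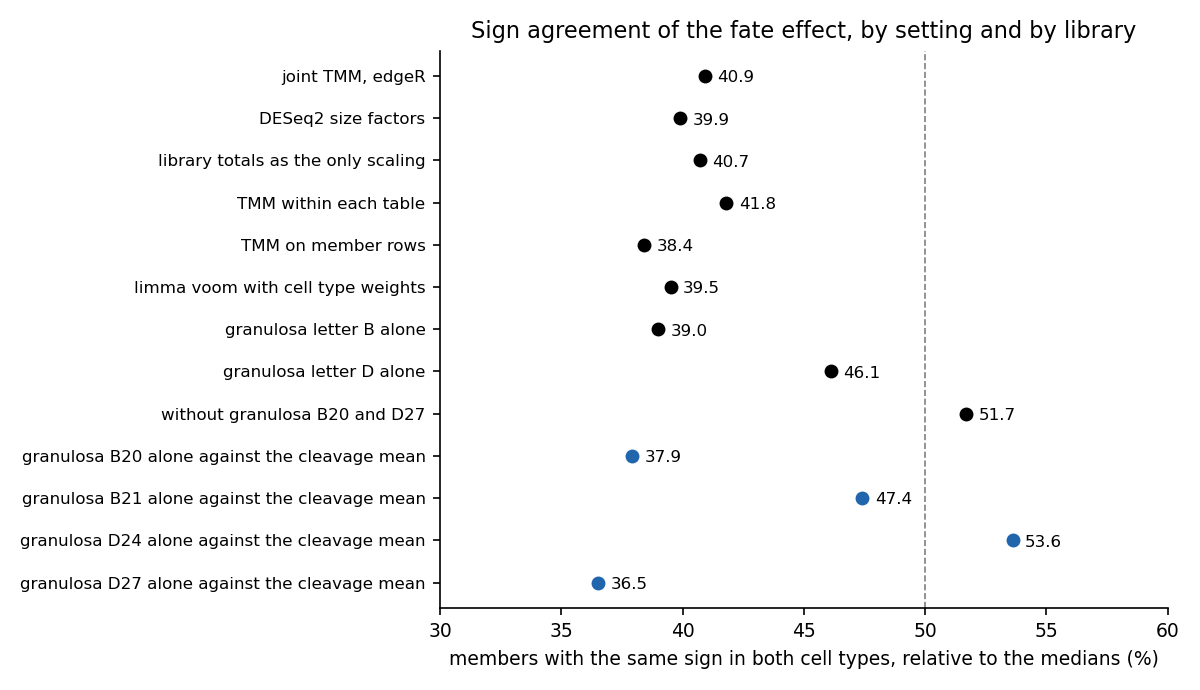
Percent of members with the same sign of the fate effect in both cell types, each relative to the median of its cell type, under each scaling or choice of libraries (black) and for single granulosa libraries of the blastocyst group (blue), with a dashed line at equal shares. The value is 40.9% with all libraries, 51.7% without B20 and D27, and between 36.5% and 53.6% for single libraries.

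Single calls differed in how far they held when any 1 library was left out. Each such fit repeated the filter, the scaling and the estimate of spread with 1 library fewer. Without cumulus library 10, for example, the granulosa median of all rows fitted was 0.38, against 0.21 with all libraries. A lost call therefore cannot be put down to the left-out library alone. Of the 312 lower interactions, 84 were called in each of the 16 fits that left out a library, ANK2, CNTNAP2, CPNE4, MARCH10, OSMR and SAMD5 among them, and 58 of the 84 were called also without B20 and D27. Of the 44 higher interactions 0 were called in all 16 of these fits. Of the 93 members with a lower average 3 were, and FAM208A was called in 13 of 16 and ZNF845 in 10 of 16. The test takes 1 spread for a row over both cell types. The SE of the cumulus effect of C5H12orf57, for example, was 0.36 in the joint fit and 0.13 in the cumulus fit. For its granulosa effect the SE was 0.36 in the joint fit and 0.54 in the granulosa fit, and for that of LAMA5 0.28 and 0.52. In the granulosa fit LAMA5, SEPT6, MARCH3, ZNF699, FAM208A, NUFIP2, ZNF569 and SEPT9 did not pass (edgeR adjusted p of 0.0548 to 0.129). ANK2, CPNE4, CNTNAP2, SAMD5, MARCH10, OSMR, NOS1AP, COL25A1, TNFRSF8, ZNF469, C5H12orf57 and ZNF845 passed there (edgeR adjusted p of 0.0116 to 0.0418). With limma voom and weights by cell type, 667 members had a higher and 341 a lower interaction.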

How the data were processed

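The RNA of cumulus and granulosa cells was counted in 16 libraries. Per the labels' protocols, cDNA came from a SMART-Seq HT kit and libraries from Nextera XT. The tools STAR, featureCounts, cutadapt and Trim Galore are named per the submitters' processing notes. For tool versions, strand setting and genome build, nothing was given in the sources used here. Each deposited table, 1 per cell type with 59051 rows, holds whole-number counts that the authors had not normalized, and they were used unchanged. Overlapping rows can share reads, and 66 members have counts identical to those of another member in all 16 libraries, so member counts are not counts of independent genes.

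Libraries took their group from the column names, which carry the fate. Cumulus columns do not carry the numbers of the sample titles. CPM for membership are per library total. The joint table of 16 libraries was filtered (filterByExpr), given TMM factors and fitted with edgeR 4.0.16 (robust quasi-likelihood F test, 4 group means, R 4.3.3). The contrasts were the interaction, the average and each cell type's effect, with Benjamini-Hochberg adjustment over all rows fitted. Each table was also fitted on its own. CPM given per library are TMM-scaled, to 1000000, and errors are SD over 4 libraries. Each SE was worked back from the test, as the size of the log2 effect divided by the square root of its F value. Shares were compared by exact permutation over 70 assignments. The scripts were tested on simulated data.

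Alternatives were DESeq2 1.42.0, limma 3.58.1 voom, other scalings and filters, the label letter and left-out libraries. A RefSeq gene table of ARS-UCD2.0 held the identifiers of 5258 of 7848 LOC rows, many without a gene name. After matching, 6743 LOC rows had no symbol, and 21 of 344 LOC members had one. Python 3.11.15, pandas 2.3.3 and matplotlib 3.10.9 made tables and figures. Named genes are the symbol members of smallest p for the interaction (8 in each direction), for the average with 1 shared sign (6 in each direction) and for each opposite pattern in the 2 own fits (6 each, by the larger p), up to 4 of each list by interaction p, and 2 unnamed members in each direction. A gene that this rule names is not reported here. Members and lists were chosen with earlier results of these data known. Lists of steroidogenesis, cumulus expansion, gonadotropin and growth factor signalling, gap junctions, glycolysis, cholesterol synthesis, the mitochondrial genome, cell cycle, heat shock and stress, early response and translation factors matched 0 rows, and ATP synthase 1 row and 0 members. Of 5 rows of imprinted and X inactivation RNAs XIST alone is a member.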

Additional observations from a re-analysis of the deposited data

Results flagged for a closer look

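The difference between the fate effects of the 2 cell types, cumulus minus granulosa, passed the test for 19 of the 73 named rows. Named rows were picked largely by small p, and several became members through the granulosa blastocyst group. Their passing is therefore no evidence of how often rows differ. Of all 21929 rows fitted 10.2% passed, and of the members 3.96%. On the log2 scale it was 1.85 for C5H12orf57, 1.26 for ENSBTAG00000015312 and 0.92 for ENSBTAG00000003843. It was -3.87 for ANK2, -4.84 for CPNE4, -3.32 for CNTNAP2, -2.26 for SAMD5, -2.50 for MARCH10, -1.80 for LAMA5 and -3.66 for OSMR. It was -3.38 for NOS1AP, -4.95 for COL25A1, -4.54 for TNFRSF8, -1.76 for ZNF699, -2.82 for MARCH3, -1.83 for SEPT6 and -4.10 for ZNF469. For the unnamed ENSBTAG00000040088 and ENSBTAG00000005021 it was -3.50 and -4.01.

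Of 296 groups of 4 libraries examined, 22 held a library set far apart from the other 3, and chance gives about 1 in 20. In the granulosa blastocyst group B20 was the lowest for C5H12orf57 (3.61 CPM), KIAA0141 (20.1), WRB (21.7), QARS (8.97) and H3F3A (68.1) and the highest for ZNF154 (61.7). In the same group B21 was the lowest for H2AFY2 (19.8) and D27 the highest for COL9A2 (37.9). In the granulosa cleavage group D29 was the highest for CNTNAP2 (115), B23 for COL25A1 (19.9) and ZNF469 (10.5) and D10 for H3F3A (1030).

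In the cumulus blastocyst group library 11 was the lowest for the share of counts on member rows (91.2%) and the highest for ARMCX6 (14.9 CPM) and CYR61 (26), library 12 the lowest for SMIM37 (18.7) and library 9 the highest for COL25A1 (29.3). In the cumulus cleavage group library 5 was the lowest for ARMCX6 (10.7), library 6 the lowest for SEPT9 (102), library 7 the highest for ZNF606 (43.4) and library 8 the highest for MYO18A (15.7) and ZNF469 (17.8).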

How the results depend on the processing

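The numbers of calls among members depended on scaling, tool and single libraries, and the cause was not tested. Interactions numbered 44 higher and 312 lower with all libraries. They were 9 and 572 with library totals, 1 and 939 with TMM on member rows, 350 and 627 with the DESeq2 Wald test, 667 and 341 with voom weights by cell type, 69 and 367 with the label letter as a covariate, 383 and 333 with letter B alone, 2562 and 530 with letter D alone, and 79 and 68 without B20 and D27. Restricting the members to 10 CPM in each group gave 33 and 121, and 30 CPM gave 16 and 60. For the average, the main 222 higher and 93 lower became, in the same order of settings, 438 and 18, 732 and 7, 522 and 468, 239 and 513, 264 and 175, 180 and 248, 457 and 2797, 43 and 150, 74 and 87, and 38 and 52. In letter D alone and letter B alone the granulosa groups hold 2 libraries each. In the main fit 10.2% of all rows fitted and 3.96% of members passed for the interaction, and 7.87% and 3.5% for the average. For the alternative settings and left-out libraries, here and elsewhere in the text, the shares of all rows fitted were not counted. Those numbers of calls therefore do not set members apart from other rows.

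In cumulus cells alone, 0 members passed with edgeR in either direction (665 higher and 1057 lower at an unadjusted p under 0.05), against 12 higher and 155 lower without a filter, 16 and 116 with the DESeq2 Wald test and 5 lower with voom. In granulosa cells alone, 226 higher and 56 lower became 368 and 30 under DESeq2 size factors, 560 and 8 under plain totals, 770 and 1 with TMM on member rows, 538 and 246 with the Wald test, 320 and 631 with voom, 222 and 34 with the letter as a covariate, 0 and 0 with letter B alone, 185 and 282 with letter D alone, 0 and 0 without B20 and D27, 78 and 46 at 10 CPM in each group and 45 and 19 at 30 CPM.

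The same sign held for 44.9% of members, for 41.6% under DESeq2 size factors, 41.4% under plain totals, 40.2% with TMM on member rows, 41.7% with the Wald test, 41.9% with letter B, 47.5% with letter D, 49.6% without B20 and D27 and 47.7% at 30 CPM. Relative to the medians, 40.9% became 38.4% with TMM on member rows, 39.5% with voom, 39.0% with letter B, 46.1% with letter D and 51.7% without B20 and D27. The median interaction of 0.52 was 0.36 under DESeq2 size factors, 0.36 in the Wald test, 0.24 under plain totals, 0.68 with TMM within each table, 0.66 without a filter, 0.35 without B20 and D27, 0.64 at 30 CPM and, reversed, -0.35 with TMM on member rows.

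Leaving out single libraries gave 4 to 1516 higher and 85 to 621 lower interactions, 50 to 471 higher and 6 to 1308 lower averages, 0 higher and 0 to 7 lower members in cumulus cells, and 82 to 246 higher and 10 to 359 lower in granulosa cells. The same sign then held for 43 to 47.3%, or 37.9 to 44.2% relative to the medians, and the median interaction was 0.45 to 0.80. The difference in the share of counts on members was -0.098 to 0.108 percentage points in cumulus and -23.293 to -11.087 in granulosa cells.

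With TMM on member rows the interaction turned negative, without passing, for WRB (-0.06), ZNF845 (-0.17), FAM208A (-0.21), NUFIP2 (-0.44), ZNF569 (-0.21), PDZK1 (-0.02), ZNF606 (-0.24), ENSBTAG00000003843 (-0.17), SARS (-0.32), H2AFY2 (-0.24), H2AFY (-0.39), COL21A1 (-0.17), SEPT2 (-0.02), SEPT7 (-0.35), MARCH7 (-0.22), MARCH6 (-0.31), FAM208B (-0.66), PAPD4 (-0.11), ZCCHC11 (-0.63), ZCCHC6 (-0.68), XIST (-0.17), SLC47A1 (-0.61) and SLC5A3 (-0.40). SLC5A3 was also negative with letter D (-0.33) and without B20 and D27 (-0.24), where DIRC2 was positive (0.04, and 0.71 with letter D). KIAA1551, at -0.13, was 0.50 with voom and 0.26 with letter B, and -0.41 to 0.46 with single libraries left out. PAPD5, at -0.17, was 0.04 with TMM within each table and -0.31 to 0.09 with single libraries left out. DIRC2, at -0.48, was -0.73 to 0.05 with single libraries left out.

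Of the interactions and averages of named genes, recomputed with single libraries left out, 1161 values kept their direction and their side of the threshold, 101 lost the call, 72 gained it and 10 reversed. Under the other alternatives these numbers were 746, 41, 107 and 30.

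No paired analysis was possible because the cumulus columns do not carry the title numbers and the granulosa numbers are not shared between fates. Most members have no gene name, the joint test takes 1 spread for unequal cell types, and 4 libraries per group limit what single calls can show.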
